A study of Homo sapiens with 12 samples.

Results

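The comparison described here set WT cells of the human gastric cancer line HGC-27 that had received the peptide GLUP against WT cells that had received none. It used 6 of the 12 RNA-seq libraries of the study, namely 3 untreated libraries (replicates 1, 2 and 3) and 3 GLUP libraries (replicates 14, 15 and 16). Of the 20345 genes listed, 11225 had a mean of at least 1 FPKM (a transcript abundance corrected for gene length and library size) over the 12 libraries, and these were tested. The other 6 libraries came from HGC-27 cells labelled TEAD4KO, untreated or with GLUP, again 3 of each. All cells grew in the same serum-containing medium, and whether the TEAD4KO cells were 1 clone is not given in the sources used here. The labels give no dose, no time and no vehicle for the untreated cells, and the text of the study names a longer exposure in its methods than in its results and a buffer control where the label says none. Nothing in the labels ties the 3 libraries of a group to separate cultures, so the p-values measure a spread between libraries that may be technical. That spread was pooled over all 12 libraries, the ones labelled TEAD4KO included.

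TEAD1 to TEAD4 are DNA-binding factors that carry no strong activation domain of their own and read out the Hippo pathway. When the Hippo kinases MST and LATS are inactive, the co-activators YAP and TAZ enter the nucleus, bind a TEAD factor and switch on growth genes. VGLL4 binds the same face of TEAD, brings no activation domain and competes with YAP. GLUP is a macrocyclic peptide that repeats the core residues with which VGLL4 grips TEAD4, and it was designed to link TEAD4 molecules to each other. The comparison asks which transcripts differ once that peptide is added.

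The 6 WT libraries were close to one another. The FPKM total of a WT library lay between 375361 and 384477, and the sequencing depth behind the values is unknown. For a pair of untreated libraries, the median absolute log2 difference over the tested genes was 0.0720 to 0.0849. Pairs of GLUP libraries differed by 0.0689 to 0.0922, and pairs of 1 untreated and 1 GLUP library by 0.0738 to 0.122. The distance between the groups thus overlapped the distance within them. GLUP replicate 16 had the lowest weight of the WT libraries in a fit that weights libraries by quality (1.02, against up to 2.66). Quoted list medians that move by over 1.5 times without that library are given both ways.

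Markers of the labelled tissue were checked. None of 11 markers of differentiated stomach epithelium reached 1 FPKM in a WT library, 6 of them were listed at 0 in all WT libraries, and their summed level was 0.239 to 0.289 FPKM untreated and 0.280 to 0.361 FPKM with GLUP. The epithelial genes EPCAM, KRT18 and KRT19 had untreated means of 0.0805, 0.200 and 0.0153 FPKM, whereas the intermediate filament gene VIM was at 1336 FPKM. Other epithelial genes were expressed, CDH1 at 3.28 and CLDN7 at 1.43 FPKM untreated. A list of 18 epithelial genes summed to 39.4 to 43.2 FPKM untreated, with 9 of them below 1 FPKM in every WT library. Of 8 intestine markers 7 were below 1 FPKM in every WT library, and CDX2 had an untreated mean of 1.23 FPKM. All 10 genes of a fibroblast marker list were expressed, with a summed level of 821 to 864 FPKM untreated and 868 to 933 FPKM with GLUP, so the summed level was higher in each GLUP library. COL3A1 (307 FPKM untreated, 331 with GLUP), COL1A1 and POSTN made up most of that sum. Markers of endothelium summed to 0.355 to 0.619 FPKM. Of the blood and immune markers, 10 of 12 were below 1 FPKM in every WT library, PTPRC among them at 0.149 FPKM untreated, and HBA1 (28.6 to 44.1 FPKM) carried most of the sum. The defining stomach markers of the label were thus absent or near 0, and mesenchymal genes were abundant. In bulk RNA, fewer cells of a kind and less RNA per cell cannot be told apart.

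With GLUP, 1 of the 11225 tested genes passed an adjusted p of 0.05 (0.00891%; limma, Benjamini-Hochberg), and 0 genes also changed by more than 2-fold. That gene was DLX3 (ENSG00000064195, GRCh37 chromosome 17, 48067369 to 48072588, minus strand), a homeobox transcription factor known for epidermal, tooth, bone and placental differentiation. It had untreated values of 36.8, 33.6 and 34.2 FPKM and GLUP values of 24.7, 25.1 and 23.6 FPKM. All 3 GLUP libraries were below all 3 untreated ones, with a gap wider than either group. DLX3 fell from 34.9 ± 1.70 to 24.5 ± 0.818 FPKM (SD, n = 3), a difference of -0.49 ± 0.06 on the log2 scale (SE, limma adjusted p = 0.0227). Leaving out any 1 of the 6 WT libraries ended the call (limma adjusted p from 0.0837 to 0.301), as did a single prior for the spread of all genes (limma adjusted p = 0.0919). Unadjusted p-values under 0.05 numbered 385 (3.43% of the tested genes), 238 of them higher with GLUP (2.12%) and 147 lower (1.31%).

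None of the other DLX genes passed the test. DLX1, DLX2, DLX4, DLX5 and DLX6 had log2 fold changes between -0.14 and 0.13, and none had an unadjusted p under 0.05. DLX4, which like DLX3 is known from the placenta, read 10.6, 11.4 and 10.9 FPKM without GLUP against 9.04, 9.87 and 10.6 FPKM under GLUP, so its groups overlapped. Of 21 genes of squamous and trophoblast differentiation, 3 were expressed enough to be tested. The cornified envelope enzyme TGM1 gave 4.73, 4.71 and 5.31 FPKM in untreated libraries, compared with 3.52, 3.95 and 3.74 FPKM in GLUP libraries (limma log2 fold change -0.32 ± 0.08, SE, adjusted p = 0.515). KRT10 and KLF4 differed by -0.11 and 0.09 on the same scale, and keratins KRT1 and KRT5, involucrin IVL and loricrin were listed at 0 untreated.

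**Figure D1:**
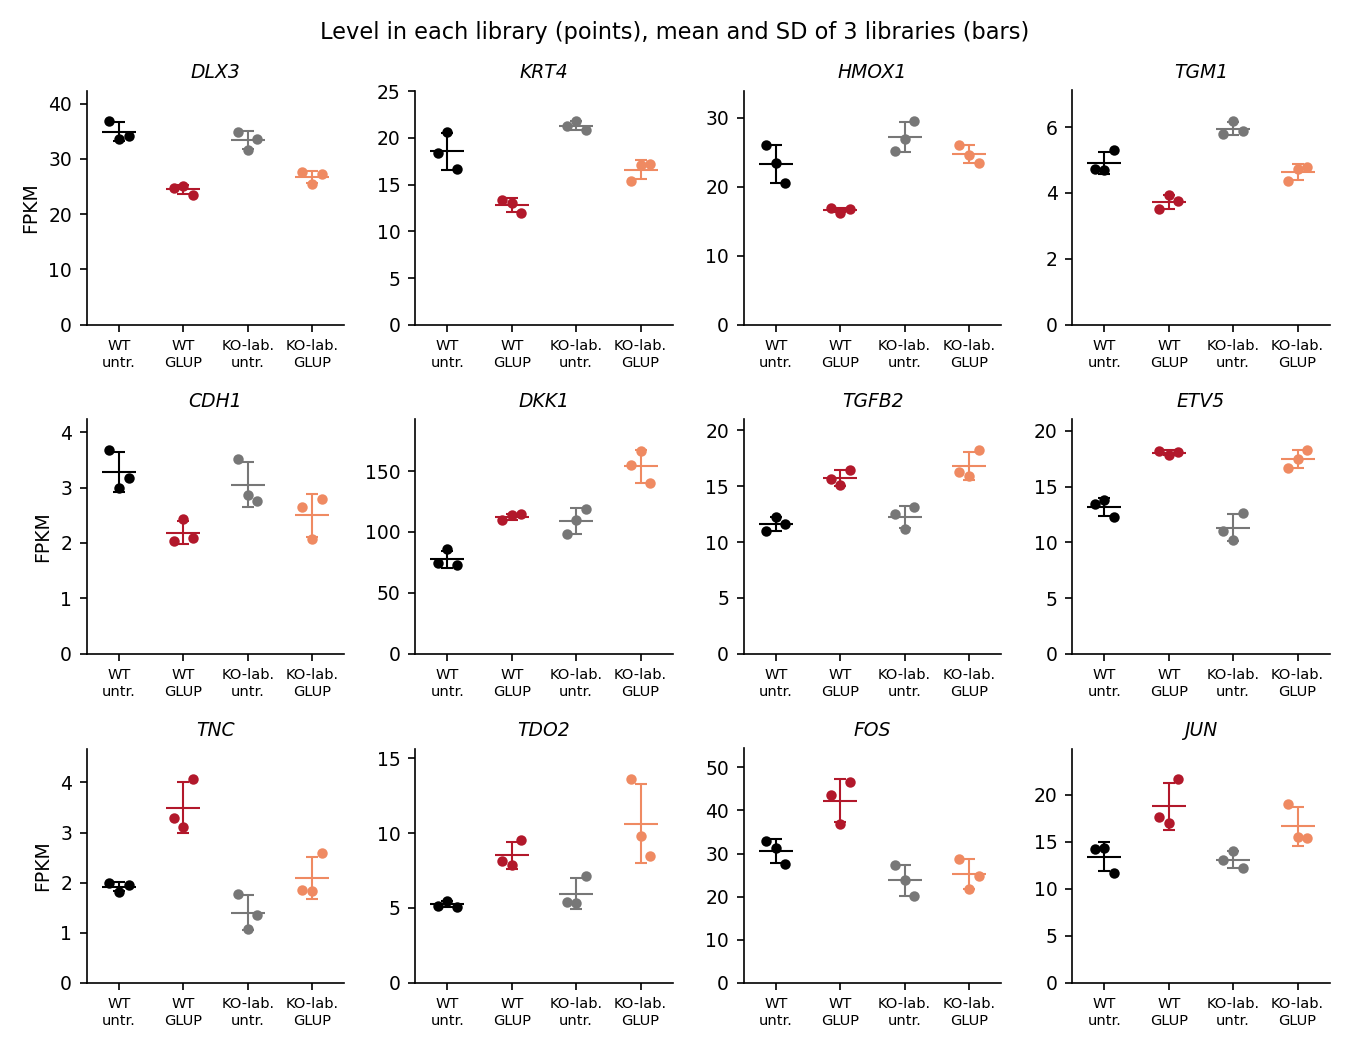
FPKM of 12 genes in each library (points; bars, mean and SD of 3 libraries; the vertical axes start at 0), for WT and TEAD4KO-labelled (KO-lab.) cells untreated (untr.) or with GLUP. In WT all 12 genes separate the GLUP libraries from the untreated ones, DLX3 at 23.6 to 25.1 FPKM against 33.6 to 36.8. Separation was a condition for choosing DLX3, KRT4, HMOX1, DKK1, TGFB2, ETV5 and TNC. Of all tested genes 10.2% were higher and 7.16% lower without overlap.

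Few differences were large. On the log2(FPKM + 1) scale, which shrinks low genes, 21 genes differed by more than 1.5-fold (0.187%) and 3 by more than 2-fold. Those 3 have no symbol in the reference table used, and none had an unadjusted p under 0.05. In the ratio of mean FPKM without the added 1, PFKFB4 (2.56) and STX16-NPEPL1 (0.488) were also past 2-fold among the tested genes named here. The ratio of CGB5, named below but too low to be tested, was 0.277. In the median, the absolute log2 fold change of a gene was 0.0617 and its SE 0.0966. The 95% interval of a gene reached 0.208 to either side in the median, which is a factor of 1.16, and it lay inside a 2-fold change in either direction for 11163 genes (99.4%). It lay inside 1.5-fold for 95.6% of all genes, for 90.2% of the genes at 1 to 5 FPKM and for 98.7% of those at 20 to 100 FPKM. FPKM is a share of a library, so a change in the total RNA of a cell would not be seen in any of these values.

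**Figure D2:**
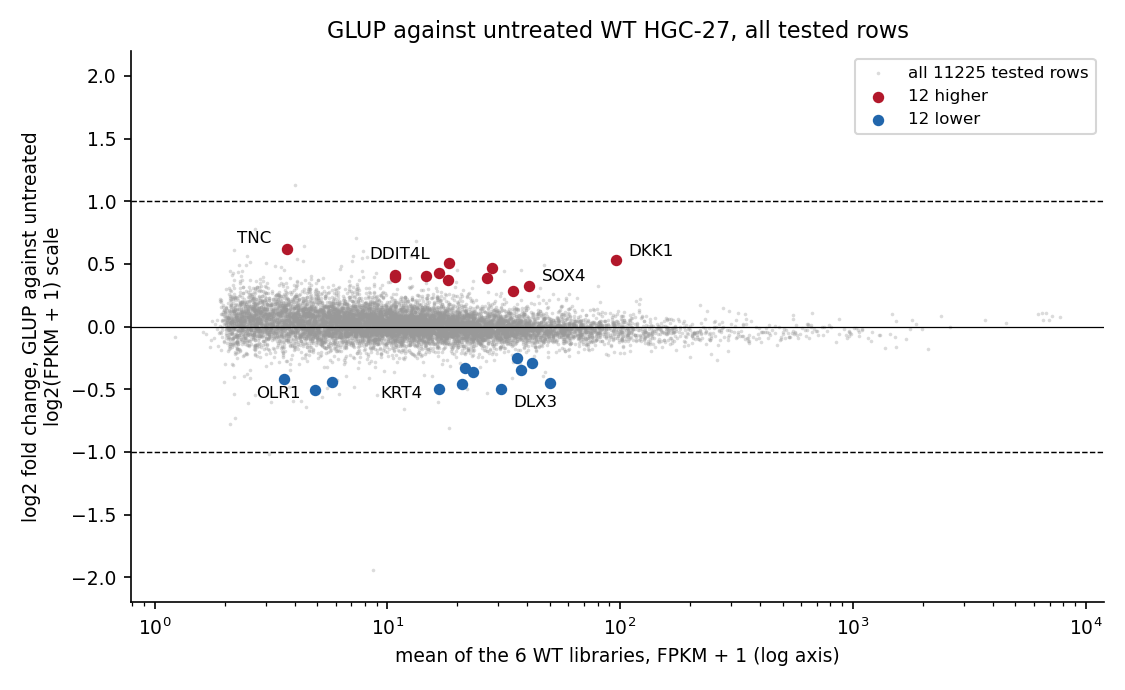
Log2 fold change of GLUP against untreated WT cells (vertical axis, log2(FPKM + 1) scale) against the mean FPKM + 1 of the 6 WT libraries (log axis) for the 11225 tested genes, with a 2-fold change as dashed lines. On this scale 3 genes lie past 2-fold, and the 12 higher (red) and 12 lower (blue) genes described in the text lie between 0.28 and 0.62 and between -0.50 and -0.25.

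The size of the difference was next read gene by gene. Groups did not overlap for 1141 genes that were higher with GLUP (10.2%) and for 804 that were lower (7.16%). From these, the 12 of each direction with the smallest p are described, so the lack of overlap in them was a condition of the choice. Apart from DLX3 none of them passed the adjusted threshold (limma adjusted p from 0.102 to 0.511).

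Of the 12 higher genes, DKK1, TGFB2 and TNC encode secreted proteins. DKK1 (GRCh37 chromosome 10, 54074041 to 54077802), a secreted antagonist of Wnt co-receptors, measured 74.1, 85.7 and 73.1 FPKM without the peptide and 110, 113 and 114 FPKM with it. Every GLUP library was above the highest untreated one, and the untreated libraries were the more spread out (limma log2 fold change 0.53 ± 0.08, SE, adjusted p = 0.102). TGFB2, a ligand of the TGF-beta family, had untreated values of 11.03, 12.2 and 11.6 FPKM and GLUP values of 15.6, 15.1 and 16.5 FPKM (log2 fold change 0.41 ± 0.08, SE). The matrix glycoprotein gene TNC read 2.00, 1.82 and 1.95 FPKM without GLUP against 3.30, 3.11 and 4.07 FPKM under GLUP. TNC had the highest value of the 12 genes on the log2 scale (0.62 ± 0.13, SE, limma adjusted p = 0.298), at a level low enough for the added 1 FPKM to shrink it. Means without the logarithm differed by 44.9% for DKK1, 35.2% for TGFB2 and 81.9% for TNC.

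The higher genes ETV5, SOX4 and TCF4 encode transcription factors. ETV5, a PEA3 factor of the ETS family that ERK signalling is known to induce, gave 13.4, 13.8 and 12.3 FPKM in untreated libraries, compared with 18.2, 17.8 and 18.1 FPKM in GLUP libraries (limma log2 fold change 0.43 ± 0.08, SE, adjusted p = 0.238). All 3 GLUP libraries of ETV5 were above the untreated ones and lay close together. SOX4, a factor of progenitor and tumour cells, measured 34.7, 36.9 and 34.0 FPKM without the peptide and 45.0, 42.6 and 45.5 FPKM with it. TCF4, a basic helix-loop-helix factor found in mesenchymal cells, had untreated values of 21.3, 22.0 and 23.0 FPKM and GLUP values of 28.3, 28.4 and 31.3 FPKM. TRIB2, a pseudokinase that acts as a scaffold for protein degradation, had a log2 fold change of 0.39 ± 0.08 (SE). Groups that do not touch were a condition for choosing these genes.

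The remaining higher genes were DDIT4 and DDIT4L, inhibitors of the growth kinase complex mTORC1, RDH10, which makes retinaldehyde from retinol, TMTC1, an O-mannosyltransferase of the endoplasmic reticulum, and FAM171B. DDIT4 read 23.6, 22.3 and 21.8 FPKM without GLUP against 27.02, 34.6 and 33.9 FPKM under GLUP, with replicate 14 the lowest of the 3. RDH10 had the smallest difference of the 12, with untreated values of 30.4, 30.1 and 29.8 FPKM and GLUP values of 35.9, 36.9 and 37.9 FPKM (limma log2 fold change 0.28 ± 0.06, SE, adjusted p = 0.248). DDIT4L, TMTC1 and FAM171B had log2 fold changes of 0.51, 0.41 and 0.37.

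Among the 12 lower genes, KRT4 stood next to DLX3. KRT4, a type II keratin of stratified mucosa, gave 18.4, 20.6 and 16.7 FPKM in untreated libraries, compared with 13.4, 13.1 and 11.96 FPKM in GLUP libraries (limma log2 fold change -0.50 ± 0.08, SE, adjusted p = 0.102). HMOX1, which degrades haem, measured 26.0, 23.5 and 20.5 FPKM without the peptide and 16.9, 16.2 and 16.8 FPKM with it. The untreated HMOX1 values spread more widely than the GLUP values, and the lowest of them was still above all GLUP libraries. The scavenger receptor genes OLR1 and SCARA3 had log2 fold changes of -0.50 ± 0.10 and -0.36 ± 0.07 (SE). OLR1 encodes the receptor for oxidised low-density lipoprotein and had untreated values of 4.08 to 5.29 FPKM and GLUP values of 2.80 to 3.40 FPKM.

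Genes of varied function made up the rest of the lower 12. UCP2, an inner mitochondrial membrane carrier, read 42.4 to 46.7 FPKM without GLUP against 36.1 to 37.0 FPKM under GLUP. BOP1, needed for maturation of the large ribosomal subunit, had a log2 fold change of -0.33 ± 0.08, PROK1, a secreted prokineticin, of -0.42 ± 0.10, and HACD1, an enzyme of very long chain fatty acid elongation, of -0.25 ± 0.06 (SE). FXR1, an RNA-binding protein, gave 57.8, 53.2 and 58.0 FPKM in untreated libraries, compared with 49.4, 37.4 and 37.0 FPKM in GLUP libraries, where replicate 14 lay nearer to the untreated level. TRIML2 and TRIM16L were also lower (-0.44 and -0.34), and TRIM16L shares much of its sequence with TRIM16, so its reads may be split between both.

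The TEAD factors themselves and their cofactors were considered next. TEAD4 (GRCh37 chromosome 12, 3068496 to 3149842) measured 25.8, 24.4 and 25.01 FPKM without the peptide and 23.7, 22.9 and 23.8 FPKM with it. Its groups did not overlap, yet the difference of -0.09 ± 0.06 on the log2 scale (SE, limma adjusted p = 0.999) was within the error, with a 95% interval from -0.23 to 0.04. TEAD1, TEAD2 and TEAD3 differed by -0.05, 0.08 and -0.04, and YAP1 by -0.06, where 1 untreated library at 41.7 FPKM stood above the other 5 (32.0 to 37.0 FPKM). TAZ, encoded by WWTR1, had untreated values of 19.5, 18.9 and 18.5 FPKM and GLUP values of 21.8, 20.03 and 22.3 FPKM. VGLL4 had the widest difference of the family, from 10.99, 9.62 and 9.86 FPKM without the peptide to 11.9, 12.4 and 14.3 FPKM with it (limma log2 fold change 0.31 ± 0.08, SE, unadjusted p = 0.00212, adjusted p = 0.610). VGLL1 and VGLL2 were listed at 0 in all WT libraries, and VGLL3 did not exceed 0.00849 FPKM. GLUP is a peptide and adds no transcript, so the VGLL4 values are those of the gene of the cell.

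Target genes of TEAD are read here with the stretch upstream of their start, where the core motif GGAATG or its reverse complement CATTCC is the sequence that TEAD factors contact. CCN2 (also CTGF) is shown as a long-known target with several copies, and TGFB2 and DKK1 as higher genes that hold 1 copy. The 250 bases before the transcription start follow, 5′ to 3′ on the strand of the gene, from RefSeq on GRCh38.p14, with the motif in capitals. They span chr6:131951373-131951622 (minus strand), chr1:218345086-218345335 (plus) and chr10:52314031-52314280 (plus).
CCN2: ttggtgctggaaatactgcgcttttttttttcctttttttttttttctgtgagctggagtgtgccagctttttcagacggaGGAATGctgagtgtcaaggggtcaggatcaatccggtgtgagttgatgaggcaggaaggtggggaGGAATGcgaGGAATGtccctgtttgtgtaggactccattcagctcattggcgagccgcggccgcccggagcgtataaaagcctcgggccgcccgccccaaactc
TGFB2: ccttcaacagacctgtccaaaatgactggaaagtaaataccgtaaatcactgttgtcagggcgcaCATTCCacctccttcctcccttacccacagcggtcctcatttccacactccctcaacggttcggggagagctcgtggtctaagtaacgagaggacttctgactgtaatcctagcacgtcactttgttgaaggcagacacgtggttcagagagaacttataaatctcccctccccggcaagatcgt
DKK1: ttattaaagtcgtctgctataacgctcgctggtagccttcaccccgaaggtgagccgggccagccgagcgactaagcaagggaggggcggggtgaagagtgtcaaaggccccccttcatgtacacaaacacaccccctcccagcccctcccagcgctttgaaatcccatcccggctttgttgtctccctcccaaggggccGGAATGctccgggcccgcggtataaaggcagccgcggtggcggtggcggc

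CCN2 holds 3 copies, whose first bases lie 169, 104 and 95 bases before the start, TGFB2 holds 1 copy on the opposite strand at 185 bases and DKK1 holds 1 at 50 bases. The motif is short and occurs in 14.05% of the 27305 human promoters of the RefSeq set (300 bases each) and in 10.5% of the 9034 that belong to tested genes. Of the 12 higher genes, 10 had a promoter there and 4 held the motif (DKK1, TGFB2, SOX4 and TCF4). Of the 12 lower genes, 6 had one and 1 held it (TRIML2). Of the YAP, TAZ and TEAD targets taken up next, 14 had one and 6 held it. A match describes letters and not a bound site, and DLX3, ETV5 and HMOX1 were not among the promoters.

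None of the target genes that the study names passed the test. CCN2 read 7.25, 7.54 and 6.92 FPKM without GLUP against 7.42, 6.47 and 7.55 FPKM under GLUP, so the groups overlapped fully (limma log2 fold change -0.02 ± 0.09, SE, adjusted p = 0.999). CCN1 (also CYR61), which encodes a matrix protein secreted like CCN2, gave 26.1, 28.5 and 25.2 FPKM in untreated libraries, compared with 24.4, 22.7 and 26.6 FPKM in GLUP libraries (-0.11 ± 0.08, SE). The receptor kinase gene AXL (8.90 to 9.94 FPKM untreated, 9.30 to 9.53 with GLUP) and the cyclin gene CCNA2 (36.7 to 40.8 untreated, 34.2 to 39.1 with GLUP) overlapped as well. BCL2L1, which protects from apoptosis, measured 32.8, 32.7 and 30.7 FPKM without the peptide and 29.4, 30.9 and 27.9 FPKM with it (-0.12 ± 0.06, SE, unadjusted p = 0.0616). The lower ends of the 95% intervals were -0.22 for CCN2, -0.29 for CCN1, -0.23 for AXL, -0.27 for CCNA2 and -0.25 for BCL2L1, all short of a 1.5-fold fall. CGB5 read 0.0823, 0.146 and 0.0564 FPKM without GLUP against 0.0126, 0.0332 and 0.0331 FPKM under GLUP. These groups did not overlap, but CGB5 was below 0.15 FPKM in all WT libraries, near the floor, and was not tested.

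**Figure D3:**
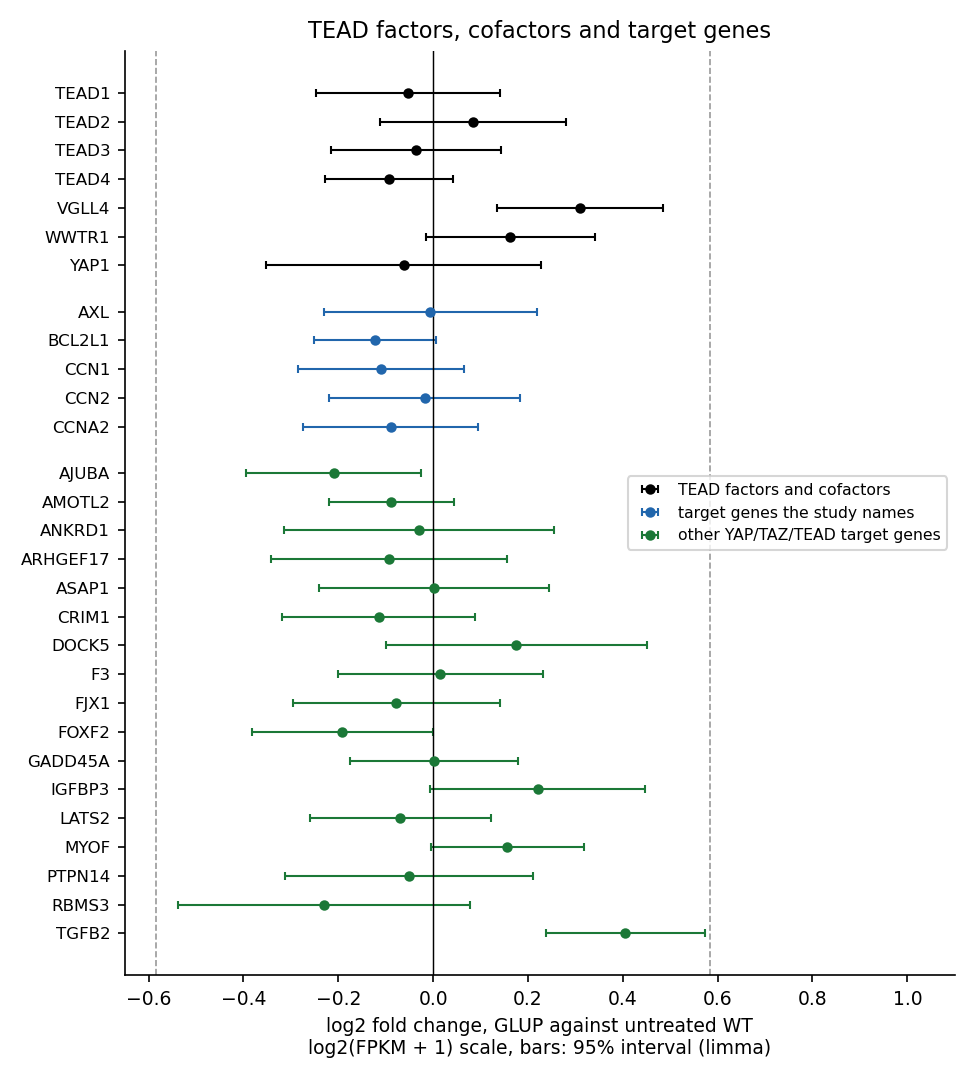
Log2 fold change of GLUP against untreated WT cells (horizontal axis) with its 95% interval (bars, limma) for 7 TEAD factors and cofactors (black), 5 target genes named by the study (blue) and further YAP/TAZ/TEAD target genes (green). Dashed lines mark 1.5-fold, which no interval crosses, and TGFB2 (0.41) and VGLL4 (0.31) lie farthest to the right.

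A broader list of 22 YAP, TAZ and TEAD target genes was mixed in direction. Among its 20 tested members, 7 were higher (53.9% of all tested genes were) and 13 lower (46.1%). Their median log2 fold change of -0.040 stands beside 0.0088 over all tested genes. Only TGFB2 was higher and AJUBA and FOXF2 lower at an unadjusted p under 0.05, and none passed the adjusted test. Of all tested genes 2.12% were higher and 1.31% lower at that p. AJUBA, a LIM protein that restrains LATS, had untreated values of 28.7, 28.1 and 27.9 FPKM and GLUP values of 25.04, 23.3 and 24.6 FPKM (log2 fold change -0.21 ± 0.09, SE). IGFBP3 read 108, 116 and 109 FPKM without GLUP against 113, 126 and 152 FPKM under GLUP, with the highest value in replicate 16. The split moved with single libraries. It was 4 higher and 16 lower without replicate 16 (median -0.072), 10 and 10 without untreated replicate 2 (median -0.016) and 10 and 10 without GLUP replicate 15 (median -0.0055). The Hippo kinase core and its upstream regulators had 25 tested members with 14 higher and 11 lower (median 0.012). Of these AJUBA alone had an unadjusted p under 0.05 (3.43% of all tested genes in either direction). The median of the Hippo list turned to -0.0092 after median-ratio scaling, to -0.0215 with the correction for GC content and length and to -0.0089 without untreated replicate 2. In those fits the median of all tested genes was -0.013, -0.0085 and 0.0013. Factors that the study examined as TEAD4 partners, RFXANK, EMSY, YY1 and CTCF among them, had log2 fold changes between -0.10 and 0.17, VGLL4 excepted, and those of RFXANK, EMSY and YY1 had the other sign under some scalings or corrections.

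Genes known to be induced by ERK, the terminal kinase of the RAS and RAF cascade, and the inhibitors that feed back on it had the highest median of the 32 lists examined. Of 18 members 13 were tested, all 13 were higher with GLUP (median log2 fold change 0.26), and the groups did not overlap in 11 (10.2% of all tested genes were higher without overlap). At an unadjusted p under 0.05, 5 were higher (2.12% of all tested genes) and 0 lower, and 0 passed the adjusted test. SPRY2, a feedback inhibitor of receptor kinase signalling, gave 3.31, 3.67 and 3.80 FPKM in untreated libraries, compared with 4.91, 5.12 and 4.97 FPKM in GLUP libraries (limma log2 fold change 0.39 ± 0.10, SE, adjusted p = 0.512). The PEA3 factors ETV1 and ETV4, added after their values were seen because they are the relatives of ETV5, had untreated means of 6.58 and 2.27 FPKM and GLUP means of 8.99 and 2.89 FPKM. CCND1, the cyclin through which ERK drives entry into the cycle, had means of 78.6 FPKM without and 79.6 FPKM with the peptide. The phosphatase genes DUSP4, DUSP5 and DUSP6 were below the filter. This list was drawn up after these libraries had been examined, so its direction is not independent evidence. The median stayed between 0.18 and 0.32 when each WT library was left out, and 12 of 13 members were higher after median-ratio scaling or after a correction for GC content and length.

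Immediate early genes, which respond to growth factors and stress within minutes, showed a similar pattern. Like every list here, theirs was chosen with earlier results of these data known, so the similarity is not independent evidence. All 14 tested members of 16 were higher (median 0.18), 7 with an unadjusted p under 0.05 (2.12% of all tested genes were higher at that p) and 8 with groups that did not overlap (10.2% of all tested genes), and 0 passed the adjusted test. FOS measured 32.9, 31.2 and 27.6 FPKM without the peptide and 43.5, 36.8 and 46.6 FPKM with it (limma log2 fold change 0.45 ± 0.12, SE, adjusted p = 0.666). JUN, its partner in the AP-1 dimer, had untreated values of 14.3, 14.3 and 11.6 FPKM and GLUP values of 17.6, 17.0 and 21.7 FPKM (0.45 ± 0.11, SE). ATF3 had a log2 fold change of 0.17. The count of higher members was 13 of 14 after median-ratio scaling, quantile normalization or the correction for GC content and length. It ranged from 12 to 14 when each WT library was left out.

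Genes of the mesenchymal state and the matrix tended to higher values. Of 17 tested mesenchymal genes 14 were higher and 3 lower (median 0.098), and 4 had an unadjusted p under 0.05, all higher (2.12% of all tested genes). The smooth muscle actin gene ACTA2 read 65.5, 77.4 and 69.4 FPKM without GLUP against 90.0, 86.3 and 89.8 FPKM under GLUP (limma log2 fold change 0.32 ± 0.08, SE, adjusted p = 0.442). The gelatinase gene MMP2 gave 10.2, 10.6 and 10.3 FPKM in untreated libraries, compared with 12.6, 13.4 and 13.7 FPKM in GLUP libraries (0.32 ± 0.07, SE). VIM, SNAI1 and ZEB2 were on the lower side (-0.07, -0.11 and -0.13). Collagens, laminins and integrins had 15 of 19 tested members higher (median 0.084, and 13 with a median of 0.058 without replicate 16), COL1A2 among them with 5.80, 4.93 and 5.99 FPKM in untreated and 6.81, 7.37 and 9.80 FPKM in GLUP libraries, while COL1A1 differed by -0.0029. The fibroblast marker sum given above includes COL1A1, COL1A2 and COL3A1, so it is no separate readout of these genes. It was higher in the same libraries by a narrow gap (highest untreated sum 864 FPKM, lowest with GLUP 868 FPKM). Its part in these values was not tested.

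Epithelial genes were scarce in these cells, with 7 of 18 tested. CDH1, the epithelial cadherin, measured 3.68, 2.99 and 3.17 FPKM without the peptide and 2.04, 2.43 and 2.10 FPKM with it (limma log2 fold change -0.42 ± 0.11, SE, adjusted p = 0.636), so no GLUP library reached the untreated range. Of the other 6, 3 were higher and 3 lower, KRT8 at -0.18 and CLDN7 at 0.17. The list median was -0.032, and it turned to 0.020 without untreated replicate 3. Without GLUP replicate 16 it was -0.065, with 2 higher and 5 lower.

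**Figure D4:**
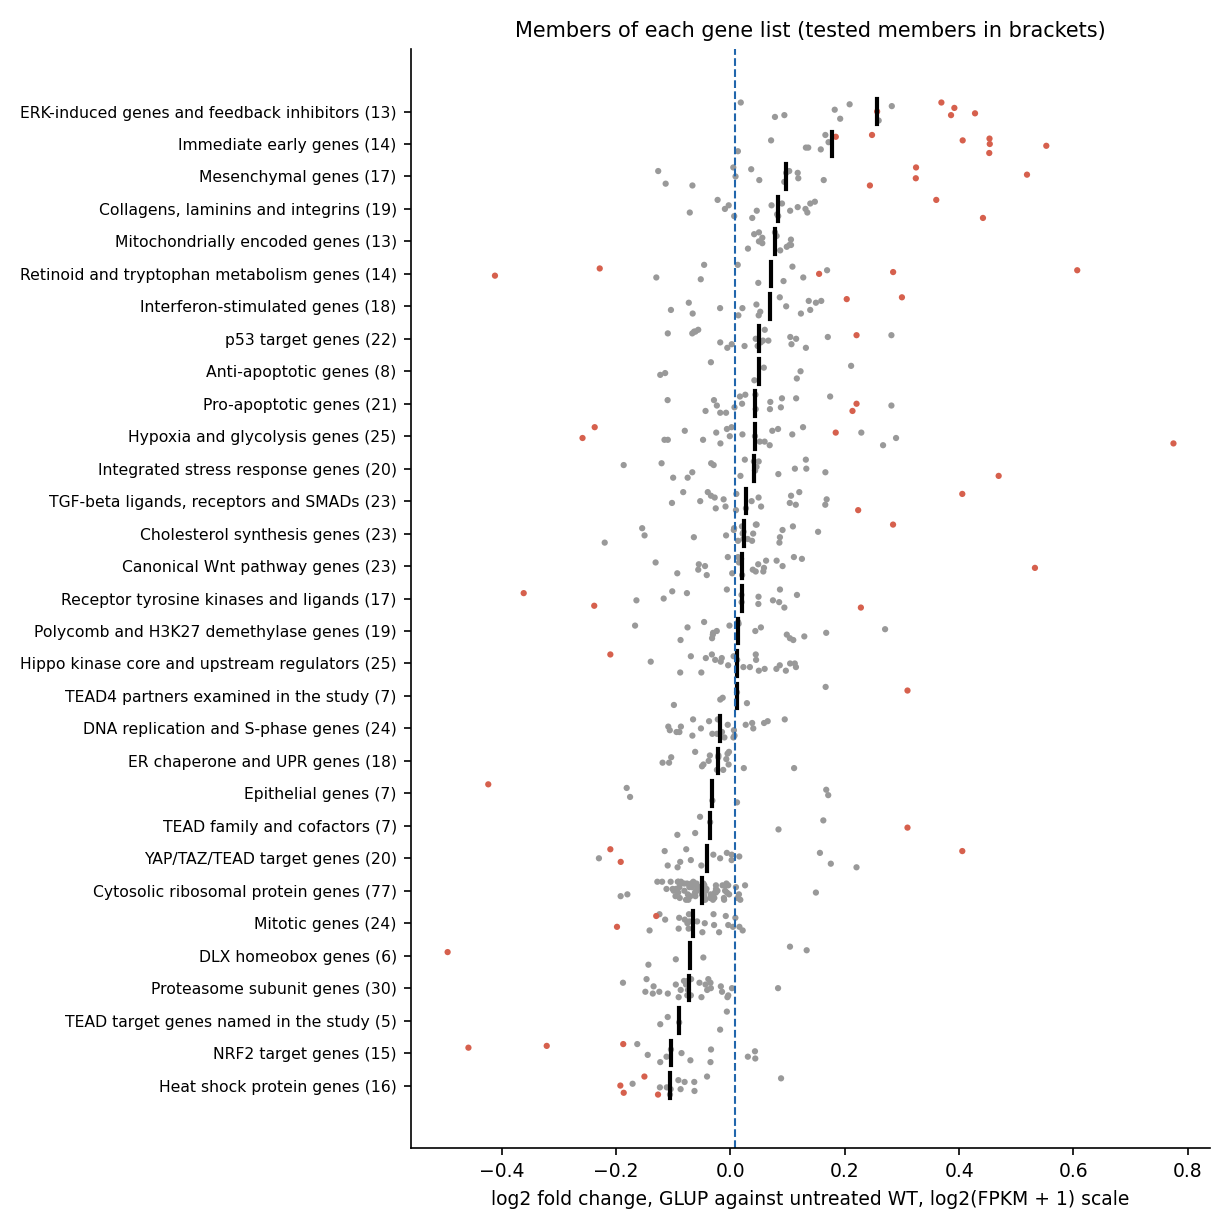
Log2 fold change of GLUP against untreated WT cells for the tested members of each gene list with at least 5 of them (points, red where the unadjusted p is under 0.05; black bars, list medians; dashed line, median of all tested genes at 0.0088). Medians run from 0.26 for ERK-induced genes to -0.11 for heat shock genes, and most points lie between -0.2 and 0.2.

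Heat shock, proteasome and NRF2 target genes were mostly on the lower side. Beside them, all tested genes at 20 to 100 FPKM had a median log2 fold change of -0.018, and those at 100 FPKM or more of -0.042. Of 16 heat shock genes 15 were lower (median -0.11), 11 with groups that did not overlap (7.16% of all tested genes were lower in that way). At an unadjusted p under 0.05, 4 were lower (1.31% of all tested genes), and 0 passed the adjusted test. HSPA1A, an inducible HSP70, had untreated values of 28.0, 25.6 and 26.1 FPKM and GLUP values of 24.8, 24.1 and 20.8 FPKM (log2 fold change -0.19 ± 0.08, SE). Its cochaperone BAG3 read 11.8, 11.99 and 11.9 FPKM without GLUP against 10.8, 10.6 and 10.5 FPKM under GLUP. Without replicate 16 the median was -0.077, again with 15 lower, and after quantile normalization 13 were lower and 3 higher. Proteasome subunit genes had 28 of 30 members lower (median -0.072) and 0 with an unadjusted p under 0.05, and without replicate 16 they had 26 lower (median -0.041).

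NRF2, the factor that switches on antioxidant genes, had 15 tested targets with 12 lower and 3 higher (median -0.10). HMOX1 (described above), OSGIN1 and SRXN1 were lower at an unadjusted p under 0.05 (1.31% of all tested genes), and 0 targets passed the adjusted test. OSGIN1, a growth inhibitor induced by oxidative stress, gave 4.65, 5.75 and 4.86 FPKM in untreated libraries, compared with 4.33, 3.78 and 3.51 FPKM in GLUP libraries (log2 fold change -0.32 ± 0.10, SE). The pentose phosphate enzyme genes PGD and TALDO1 were at 0.04 and 0.03. The list was drawn up after these libraries had been examined.

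Growth and death genes showed small differences. Of 24 mitotic genes 20 were lower (median -0.065), with UBE2C at 121, 115 and 115 FPKM in untreated and 104, 114 and 88.4 FPKM in GLUP libraries and its low value in replicate 16. Without that library 15 were lower and 9 higher (median -0.023), and after median-ratio scaling all 24 were lower. DNA replication and S-phase genes had 9 higher and 15 lower members (median -0.018), 0 of 24 with an unadjusted p under 0.05, and the proliferation marker MKI67 was at 32.1 FPKM untreated and 32.2 FPKM with GLUP. Pro-apoptotic genes had 15 higher and 6 lower (median 0.044), with PMAIP1 (NOXA) at 10.99, 11.3 and 10.01 FPKM in untreated and 13.3, 12.6 and 12.2 FPKM in GLUP libraries (log2 fold change 0.22 ± 0.09, SE). Anti-apoptotic genes had 5 higher and 3 lower (median 0.050), and p53 targets 15 higher and 7 lower (median 0.050), with CDKN1A at -0.11. Anti-apoptotic genes were 4 higher and 4 lower without untreated replicate 1, GLUP replicate 15 or GLUP replicate 16. In these lists 0 genes passed the adjusted test (limma), and 2, 0, 2, 0 and 1 of the members of the mitotic, S-phase, pro-apoptotic, anti-apoptotic and p53 lists had an unadjusted p under 0.05 (3.43% of all tested genes).

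Metabolic and receptor genes contained single members with wide differences. TDO2, which opens the tryptophan ring on the way to kynurenine, measured 5.15, 5.46 and 5.09 FPKM without the peptide and 8.17, 7.84 and 9.54 FPKM with it (limma log2 fold change 0.61 ± 0.14, SE, adjusted p = 0.445). CYP1A1, a cytochrome that the aryl hydrocarbon receptor induces, had untreated values of 8.71, 9.64 and 7.27 FPKM and GLUP values of 5.86, 6.26 and 6.29 FPKM (-0.41 ± 0.11, SE). CYP1B1, induced by the same receptor, read 89.0 to 97.7 FPKM without GLUP against 75.4 to 88.7 FPKM under GLUP. The fibroblast growth factor receptor gene FGFR2 gave 10.7, 11.6 and 10.7 FPKM in untreated libraries, compared with 8.54, 8.59 and 7.83 FPKM in GLUP libraries (-0.36 ± 0.11, SE), and FGFR3 had a log2 fold change of -0.24 ± 0.09 (SE). PDGFRA, receptor of a mesenchymal growth factor, measured 5.80 to 6.21 FPKM without the peptide and 6.72 to 7.43 FPKM with it. None of these 6 genes passed the adjusted test.

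Most other genes of the Wnt and TGF-beta pathways differed little. Of 23 tested canonical Wnt genes 16 were higher and 7 lower (median 0.021). After median-ratio scaling (median -0.0014), quantile normalization (-0.0013) or the correction for GC content and length (-0.0030), 11 were higher and 12 lower. The median of all tested genes was -0.013, -0.0021 and -0.0085 in those fits. DKK1 was the only Wnt gene with an unadjusted p under 0.05 (3.43% of all tested genes in either direction). The Wnt feedback genes AXIN2 and NKD1 had untreated means of 32.7 and 27.4 FPKM and GLUP means of 33.2 and 26.5 FPKM. Among 23 tested TGF-beta ligands, receptors and SMADs 14 were higher and 9 lower (median 0.027). BMP4 joined TGFB2 at an unadjusted p under 0.05 (2.12% of all tested genes were higher at that p). BMP4 had untreated values of 45.6, 53.7 and 46.9 FPKM and GLUP values of 57.3, 57.8 and 55.8 FPKM (log2 fold change 0.22 ± 0.07, SE). The SMAD target genes ID1 and SMAD7 had untreated means of 121 and 9.45 FPKM and GLUP means of 119 and 9.65 FPKM.

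Ribosomal protein genes and the mitochondrial genome had small differences of mostly 1 sign. Cytosolic ribosomal protein genes were lower in 71 of 77 cases, with a median of -0.050, 0 with an unadjusted p under 0.05 and 4 with groups that did not overlap (7.16% of all tested genes). For comparison, the 507 tested genes with a mean of 100 FPKM or more had a median of -0.042. Without replicate 16, 47 were lower and 30 higher (median -0.012), after quantile normalization 52 were lower and 25 higher (-0.0084), and without untreated replicate 2 the median was -0.019. All 13 protein genes of the mitochondrial genome were higher (median 0.078), and after quantile normalization 8 were. Interferon-stimulated genes had 14 higher and 4 lower (median 0.069), with BST2 at 3.01, 3.02 and 3.23 FPKM in untreated and 3.52, 4.12 and 4.51 FPKM in GLUP libraries. The lists together held 568 tested genes, of which DLX3 alone passed the adjusted test.

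The spread between libraries of a group (median SD on the log2 scale) was 0.0673 in untreated WT, 0.0722 in WT with GLUP, 0.142 in untreated cells labelled TEAD4KO and 0.121 in those with GLUP, and all 4 groups shared 1 error per gene. The wider spread of the labelled cells thus entered the errors, intervals and p-values of the WT comparison. The median SE was 0.0966 in the fit reported and 0.0654 in a fit of only the 6 WT libraries. In that smaller fit 1 gene passed, again DLX3 (limma adjusted p = 0.0406), followed by DKK1 at 0.0548. There 1256 genes (11.2%) had an unadjusted p under 0.05. With weights for library quality 61 genes passed (0.543%), 33 higher (0.294%) and 28 lower (0.249%), with absolute log2 fold changes from 0.19 to 0.71. Groups did not overlap in all 61, while 10.2% of all tested genes were higher and 7.16% lower without overlap. Calls and overlap come from the same WT libraries, so the lack of overlap is no separate support. Besides all 24 genes above, the 61 included TDO2, SPRY2, ACTA2, MMP2, BMP4, CDH1, CYP1A1, FGFR2 and TGM1.

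The same peptide was given to cells labelled TEAD4KO, and its contrast shares no library with the WT comparison. Those libraries entered the choice of the 24 genes only through the error shared by all groups and the filter on low levels. A gene with a small shared error is favoured in both contrasts. In the labelled cells, whose spread was wider, an error shared with WT can make p-values too small. The TEAD4 transcript itself was at 27.2 to 30.1 FPKM in untreated libraries labelled TEAD4KO and at 26.0 to 29.4 FPKM with GLUP, so it was not lower than in WT, and the label is used as given. All 12 higher genes had a positive log2 fold change there (43.1% of all tested genes did), 11 with an unadjusted p under 0.05 (2.7% of all tested genes), 9 with groups that did not overlap (2.85% of all tested genes) and 3 past the adjusted threshold. Those 3 were ETV5 (log2 fold change 0.59 ± 0.08), TMTC1 (0.61 ± 0.09) and RDH10 (0.40 ± 0.06, SE). With weights for library quality, 1 of all tested genes (0.00891%) passed the adjusted threshold in the labelled cells. The median of the 12 was 0.41 in WT and 0.38 in cells labelled TEAD4KO, where all tested genes had a median of -0.017. DDIT4 had 0.47 ± 0.09 in WT and 0.03 ± 0.09 in the labelled cells, a difference of -0.44 ± 0.13 (SE, limma unadjusted p = 0.0036).

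Of the 12 lower genes 11 were lower in cells labelled TEAD4KO too (56.9% of all tested genes were), 7 with an unadjusted p under 0.05 (3.68% of all tested genes), 7 with groups that did not overlap (3.98%) and 0 past the adjusted threshold. The median was -0.43 in WT and -0.24 in the labelled cells. DLX3 read 34.9, 31.6 and 33.6 FPKM without GLUP against 27.6, 25.5 and 27.2 FPKM under GLUP in the labelled cells, a log2 fold change of -0.31 ± 0.06 (SE). The difference of its effect between the cells was 0.18 ± 0.09 (SE, unadjusted p = 0.0554). FXR1 had the opposite sign (0.05), and HMOX1 was at -0.13 ± 0.08 (SE). Their effects differed between the cells by 0.50 ± 0.16 (FXR1, limma unadjusted p = 0.0064) and 0.33 ± 0.12 (HMOX1, limma unadjusted p = 0.017, SE). For BOP1 the difference was 0.24 ± 0.11 (SE, limma unadjusted p = 0.048). None of the 24 genes had an effect that differed between the cells at an adjusted p of 0.05 (each at 1.00, limma). Over all tested genes 58.0% had the same sign in both kinds of cells, and of the 385 genes with an unadjusted p under 0.05 in WT 285 did (74.0%).

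**Figure D5:**
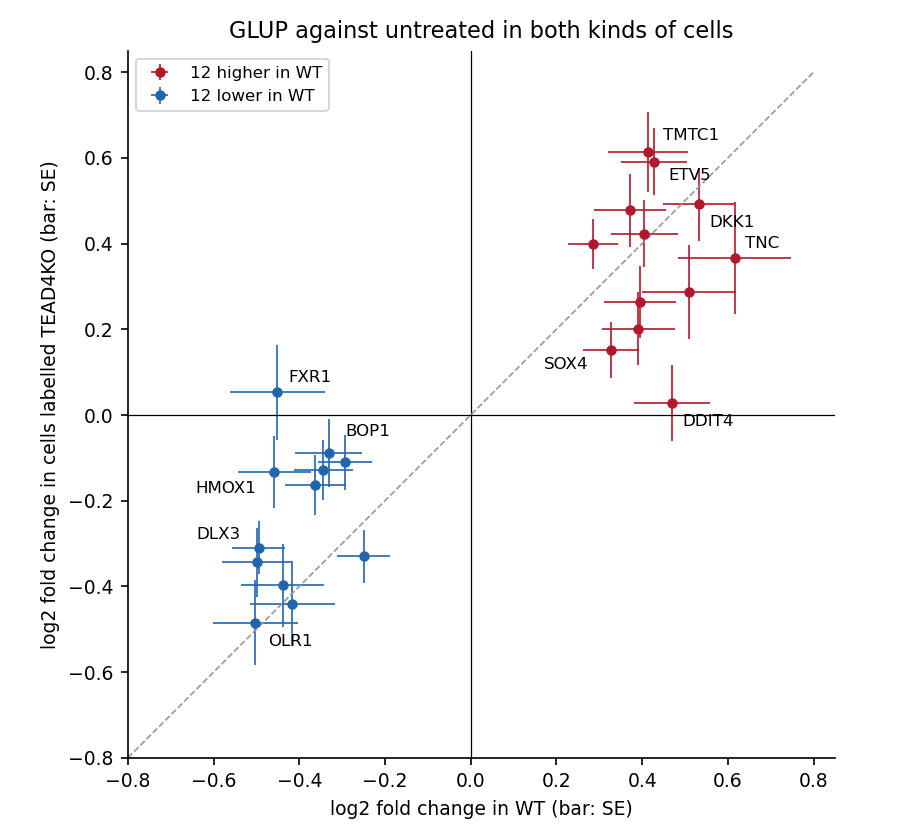
Log2 fold change with GLUP in cells labelled TEAD4KO (vertical axis) against that in WT cells (horizontal axis), with SE as bars, for the 12 genes higher (red) and the 12 lower (blue) in WT. All 12 red points lie above 0, and of the blue points only FXR1 (0.05) lies above 0; the dashed line marks equal effects.

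The rows with the widest fold changes among genes with a symbol were mostly low or uneven. PFKFB4, an activator of glycolysis, gave 0.805, 1.05 and 1.00 FPKM in untreated libraries, compared with 1.35, 2.62 and 3.36 FPKM in GLUP libraries (limma log2 fold change 0.77 ± 0.25, SE, adjusted p = 0.999). UPK3BL1 measured 10.2, 0.0251 and 20.2 FPKM without the peptide and 20.9, 20.8 and 1.12 FPKM with it, which gave 0.68 with an SE of 1.12. PDXP owed its -0.66 to 1 GLUP library at 3.10 FPKM, and GTPBP6 and STX16-NPEPL1 (both -0.61) overlapped between the groups.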

How the data were processed

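RNA from 12 HGC-27 samples was sequenced on an Illumina platform. FPKM values, 1 column a sample, were made by the authors with a commercial cloud service and deposited in that unit. The submitters' processing notes name HISAT2, Cufflinks, RSEM and hg19 without versions. A row was tested if its FPKM averaged 1 or more over the 12 libraries (11225 rows, the lowest average kept 1.0007, the highest left out 0.999). Values entered as log2 with 1 FPKM added, which understates the change of low genes. A single model of the 4 groups was fitted to all 12 libraries with limma 3.58.1 in R 4.3.3 (eBayes with trend, two-sided, Benjamini-Hochberg over all rows), and WT with GLUP against WT untreated was read from it. The fit was checked on simulated data. No permutation test of 3 against 3 was made, as its smallest p is 0.1. FPKM hides depth, so precision rests on the spread between libraries. GC content, transcript length and positions came from GENCODE 44 on GRCh37.

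The text names genes past an adjusted p of 0.05, the 12 of each direction with the smallest p among those whose groups did not overlap, the 3 of each direction with the widest fold change, the TEAD lists whole, up to 2 of each direction per list, and the 5 of each direction with the smallest p under array weights; other genes named are list members chosen after their values were seen. Members and lists were chosen with earlier results of these data known. Alternatives were a pseudocount of 0.1, no filter, a minimum mean of 5 FPKM, quantile normalization, median-ratio scaling, array weights, eBayes without trend, summing rows of a symbol, only the 6 WT libraries, a replicate block, a GC and length correction (splines with 5 degrees of freedom) and leaving out each WT library. Counts of list members under each alternative were added after seeing the data.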

Additional observations from a re-analysis of the deposited data

Results flagged for a closer look

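CD99, a surface glycoprotein whose gene lies in the pseudoautosomal region, had opposite values in the 2 kinds of cells. WT libraries gave 4.34, 5.09 and 4.15 FPKM without GLUP against 6.37, 9.09 and 8.84 FPKM under GLUP (limma log2 fold change 0.71 ± 0.19, SE, adjusted p = 0.666). In libraries labelled TEAD4KO it had untreated values of 7.67, 8.996 and 9.03 FPKM and GLUP values of 5.85, 5.59 and 2.77 FPKM (-0.78 ± 0.19, SE). The effect in TEAD4KO-labelled cells minus that in WT was -1.49 ± 0.27 on the log2 scale (SE, limma unadjusted p = 9.5e-05, adjusted p = 0.533), so it did not pass over all genes tested. All 3 GLUP libraries lay above the untreated ones in WT and below them in the labelled cells. CD99 lies on both sex chromosomes, so its reads may be split between copies.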

How the results depend on the processing

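The number of genes past an adjusted p of 0.05 was 1 in the fit reported, 2 with quantile normalization and 2 with the GC and length correction (DKK1 and DLX3 in both), 61 with array weights and 0 with eBayes without trend (401 unadjusted p-values under 0.05) or in each fit without 1 WT library (212 to 339 unadjusted). The count with more than 2-fold was 0 under every alternative. The labels give the compared groups no shared replicate number (1, 2 and 3 against 14, 15 and 16), so no paired analysis was possible because the numbers do not match; a fit over all 12 libraries with the number as a random replicate block called 1 gene, and the block changed no other call. DLX3 was at -0.49 without trend (adjusted p = 0.0919) and between -0.52 and -0.46 without 1 WT library, the call being lost with fewer samples. Of 1330 alternative values for 79 genes, 22 in 9 genes changed sign, none of a called gene. EMSY moved from 0.012 to -0.010 (median-ratio), -0.015 (quantile), -0.029 (array weights) and -0.029 (GC and length), RFXANK from -0.013 to 0.0072 (quantile), 0.0052 (array weights) and 0.012 (GC and length), and YY1 from 0.029 to -0.0076 (GC and length). Leaving out 1 WT library gave -0.047 to 0.025 for AXL, -0.054 to 0.043 for CCN2, -0.042 to 0.00010 for CTCF, -0.091 to 0.081 for EMSY, -0.047 to 0.033 for RFXANK, -0.082 to 0.018 for TEAD3, -0.14 to 0.044 for YAP1 and -0.62 to 1.81 for UPK3BL1. Scaling moved the median of all genes from 0.0088 to between -0.013 and -0.0021. The causes were not tested.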

Other observations

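Further gene groups differed little between the WT libraries. Genes of the integrated stress response, which slows translation and induces amino acid synthesis, had 13 of 20 members higher with GLUP (median log2 fold change 0.042), and its factor ATF4 was at -0.19. Chaperones and unfolded protein response genes of the endoplasmic reticulum had 16 of 18 members lower, with a median of -0.022, but 11 were higher after quantile normalization (median 0.0135), and without untreated replicate 1 the split was 8 higher and 10 lower (median -0.0085). Cholesterol synthesis genes had 18 of 23 members higher (median 0.023), among them TM7SF2 at 0.28. After median-ratio scaling 11 were higher and 12 lower (median -0.00045, beside -0.013 over all tested genes). Without untreated replicate 3 the split was 12 and 11 (median 0.00036, beside 0.012 over all tested genes). Without GLUP replicate 16 their median was 0.039, again with 18 higher. Hypoxia and glycolysis genes had 15 higher and 10 lower (median 0.043), with the vasodilator peptide gene ADM at -0.24 and the oxygen sensor gene EGLN3 at -0.26. Without GLUP replicate 16 the median of this list was 0.023, again with 15 higher. Polycomb and H3K27 demethylase genes had 10 higher and 9 lower (median 0.014). Their median was negative after median-ratio scaling (-0.0095), quantile normalization (-0.0093), the GC and length correction (-0.016) and without untreated replicate 2 (-0.0098). All tested genes had medians of -0.013, -0.0021, -0.0085 and 0.0013 in those fits. In these 5 lists 0 genes passed the adjusted test in limma, and 1, 0, 1, 4 and 0 members, in the order given, had an unadjusted p under 0.05 (3.43% of all tested genes).

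Across the tested genes the log2 fold change with GLUP had a Spearman correlation of 0.220 with transcript length and -0.117 with GC content (11077 genes) and of -0.274 with mean FPKM (11225 genes). These values describe genes of the same 6 libraries, which share depth and base composition and are not independent. In the 6744 rows below the filter, 0 were called with limma when all 17969 rows above 0 were tested, and 242 had an unadjusted p under 0.05.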
